A study of Mus musculus with 4 samples.

Results

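The cells described here carry mitosis genes, are low in Nkg7 and Il2rb, and come from sorted thymic iNKT cells, with the working name mitotic iNKT2 and precursor cells. They were selected on their own transcripts. A cell had to hold at least 1000 UMIs (unique molecular identifiers, each standing for 1 captured RNA molecule), at least 500 genes and under 10% mitochondrial UMIs. It had to hold no UMI of Cd79a, a B cell receptor gene, or of Rag1, the recombinase of immature lymphocytes. At least 3 of 9 mitosis genes had to be detected (Mki67, Top2a, Birc5, Cdk1, Ccnb2, Ube2c, Cenpf, Nusap1 and Prc1), and Nkg7, a cytotoxic granule gene, and Il2rb, a chain of the IL-15 receptor, had to hold fewer than 3 UMIs together. The rule found 305 of the 30167 cells that passed the quality limits, which was 1.01%. WT 1 held 33 of them, WT 2 held 58, ACC1 KO 1 held 98 and ACC1 KO 2 held 116.

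The study profiled CD1d tetramer+ CD3+ cells sorted from the thymus of mice 6 to 8 weeks old, after magnetic enrichment. There were 2 wild-type (WT) libraries and 2 ACC1 KO libraries, from mice lacking ACC1. ACC1, encoded by Acaca, makes malonyl-CoA, the building block for new fatty acids, and the study asked what its loss does to thymic iNKT cells. The labels give neither the promoter or Cre line behind the deletion, nor the deleted part of Acaca, nor if separate animals gave the libraries. P-values measure the spread between these libraries, which may be partly technical. Within each genotype the 2 libraries differed in sex-linked transcripts, given below, so they were not repeats of the same animal. Sex, library number and depth cannot be told apart in that spread.

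Invariant natural killer T (iNKT) cells are T cells whose nearly fixed T cell receptor recognises lipids presented by CD1d. They arise from double-positive (DP) thymocytes, pass through a CD24-high precursor stage, divide, and mature into iNKT1, iNKT2 and iNKT17 cells. iNKT2 cells carry high PLZF, the transcription factor encoded by Zbtb16, and transcripts of Il4. iNKT1 cells carry T-bet (Tbx21) and natural killer receptors. A dividing cell must enlarge its membranes, and it transcribes its mitotic genes late in the cell cycle.

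Many mitotic genes share promoter letters read by the DREAM and MuvB complexes, which hold them silent in resting cells, and by NF-Y. These are the cell cycle homology region, CHR (searched as TTTGAA or TTCGAA), and the CCAAT box (searched as CCAAT), each on both strands. The promoters of 3 of the genes that define these cells are shown because they hold both motifs. Each runs 5′ to 3′ on the gene's strand from 250 bases before the start site to 50 after it, with the motifs in capitals, from the RefSeq promoter table of build GRCm38.p6. Ccnb2, the cyclin that activates Cdk1 in mitosis, lies at chr9:70421505-70421804 on the minus strand.
Ccnb2: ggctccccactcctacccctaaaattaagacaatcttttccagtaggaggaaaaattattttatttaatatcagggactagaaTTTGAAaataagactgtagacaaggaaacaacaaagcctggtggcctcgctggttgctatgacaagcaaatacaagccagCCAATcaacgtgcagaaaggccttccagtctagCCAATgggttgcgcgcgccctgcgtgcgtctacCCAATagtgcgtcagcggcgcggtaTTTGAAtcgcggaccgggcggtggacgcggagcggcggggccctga
Cdk1, the kinase that drives entry into mitosis, lies at chr10:69352863-69353162 on the minus strand.
Cdk1: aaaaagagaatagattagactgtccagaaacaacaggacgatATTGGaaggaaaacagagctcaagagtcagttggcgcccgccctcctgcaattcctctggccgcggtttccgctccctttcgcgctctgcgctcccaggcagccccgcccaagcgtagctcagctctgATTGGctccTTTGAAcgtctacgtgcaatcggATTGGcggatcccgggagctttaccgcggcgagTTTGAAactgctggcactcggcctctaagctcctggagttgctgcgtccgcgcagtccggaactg
Ube2c, the ubiquitin-conjugating enzyme of the anaphase-promoting complex, lies at chr2:164769679-164769978 on the plus strand.
Ube2c: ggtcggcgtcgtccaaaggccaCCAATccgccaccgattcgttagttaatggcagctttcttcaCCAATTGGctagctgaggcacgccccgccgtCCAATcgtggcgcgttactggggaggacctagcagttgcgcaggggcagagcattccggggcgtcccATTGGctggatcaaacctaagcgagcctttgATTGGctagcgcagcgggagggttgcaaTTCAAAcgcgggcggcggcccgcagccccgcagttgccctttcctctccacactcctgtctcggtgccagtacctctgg
Counted from the start site, the CHR letters began at -167 and 4 in Ccnb2, at -71 and -15 in Cdk1 and at -29 in Ube2c. Of the 9 mitosis genes, 7 held the CHR letters and 7 held CCAAT, which was 77.8% for each. Among all 27025 genes with a promoter in the table, 21.7% held the CHR letters and 41.1% held CCAAT. The windows of Birc5, a subunit of the chromosomal passenger complex, and of Nusap1, a spindle microtubule binder, held neither. Among fixed lists of other cell cycle genes, CHR letters stood in 17 of 21 spindle genes, 9 of 13 mitotic kinases and cyclins, 10 of 15 kinetochore genes and 4 of 27 DNA replication genes. A match is a description of letters and not a binding site.

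Across all 4 libraries, 30455 barcodes were deposited with 29066597 to 74190167 UMIs per library, and the libraries numbered 2 were the deeper pair. The number also separated the libraries by sex-linked transcripts. In the gated mitotic cells, Ddx3y, a Y-linked helicase, stood at 59.8, 0, 55.8 and 0 CPM (UMIs of a gene per 1000000 UMIs of the same summed cells), always listed as WT 1, WT 2, ACC1 KO 1, then ACC1 KO 2. Xist, the X-inactivation RNA, stood at 0, 781, 0 and 1212 CPM. Both genotypes had 1 library of each kind. No barcode was shared between libraries among the gated mitotic cells. Their summed UMIs were 484834, 1304189, 1056607 and 2438859, and 1 cell held a median of 13431, 21702, 10418 and 21606 UMIs. Acaca, checked first as the targeted gene, stood at 45.4, 37.6, 44.5 and 92.3 CPM in these cells. The ACC1 KO libraries were not lower (log2 difference 0.75 ± 0.37 SE, adjusted p = 0.9997, edgeR quasi-likelihood test), and since 3′ counts may lie outside the deleted part, they check nothing about the genotype labels.

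The label was compared with its markers, all of which the rule or the choice of name had used, so their values are a description. Mki67, the proliferation antigen Ki-67, had a UMI in 84.8, 91.4, 88.8 and 94.0% of the cells. Top2a, the topoisomerase that untangles sister chromatids, was at 1091, 796, 930 and 912 CPM, and Birc5 at 464, 334, 559 and 321 CPM. Mitosis markers were thus high in every library. Zbtb16 had a UMI in 57.6, 94.8, 64.3 and 94.8% of the cells. Plac8, a gene of iNKT2 and early iNKT cells, had one in 63.6, 74.1, 62.2 and 82.8%. Both were detected in fewer cells of the libraries numbered 1.

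Cells with transcripts of immature thymocytes were unevenly spread over the libraries. In 43 of the 305 cells, UMIs of at least 2 of Cd8a, Cd8b1, Rag2, Ptcra, Arpp21 and Dntt, genes of DP thymocytes, were present. They numbered 11, 1, 29 and 2, or 33.3, 1.72, 29.6 and 1.72% of the gated mitotic cells, so 40 of the 43 came from the libraries numbered 1. Only 1 of the 43 held a Zbtb16 UMI and 1 held an Il4 UMI, while 42 held Arpp21 and 42 held Dntt, the enzyme that adds bases at receptor gene junctions. A further 6 cells (1, 0, 1 and 4) held fewer than 5 UMIs over 6 CD3 and T cell receptor genes. These divisions were drawn after the data were seen, and the remaining 256 cells (21, 57, 68 and 110) serve below only as an alternative.

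Among the remaining 256 cells, Zbtb16 had a UMI in 244 (95.3%), Icos, a costimulatory receptor, in 238, Gata3, the transcription factor of type 2 immunity, in 224, Plac8 in 210 and Il4 in 170. Lef1 and Satb1, factors of immature T cells, were detected in 248 and 255. Cd24a, the defining surface marker of the earliest iNKT precursors, had a UMI in only 2 of the 256 cells (0.781%), against 27 of the 43 cells with DP genes. The precursor part of the working name was thus not borne out by Cd24a. Lef1 was not particular to these cells. In mitotic cells with 3 or more UMIs of Nkg7 and Il2rb it stood at 367, 312, 316 and 376 CPM. Most precursor markers were also lower than in cells low in Nkg7 and Il2rb with no mitosis gene, as given below. Depth was of the same order, with medians of 13546, 21766, 10953 and 21668 UMIs in the remaining cells and 12479, 17213, 7994 and 27897 in the cells with DP genes. Receptor variable genes were sparse in these 3′ counts. Trav11, the variable gene of the invariant alpha chain, was seen in 0, 3, 0 and 1 of these cells, and Vbeta8 genes in 19.0, 19.3, 16.2 and 20% of them.

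**Figure D1:**
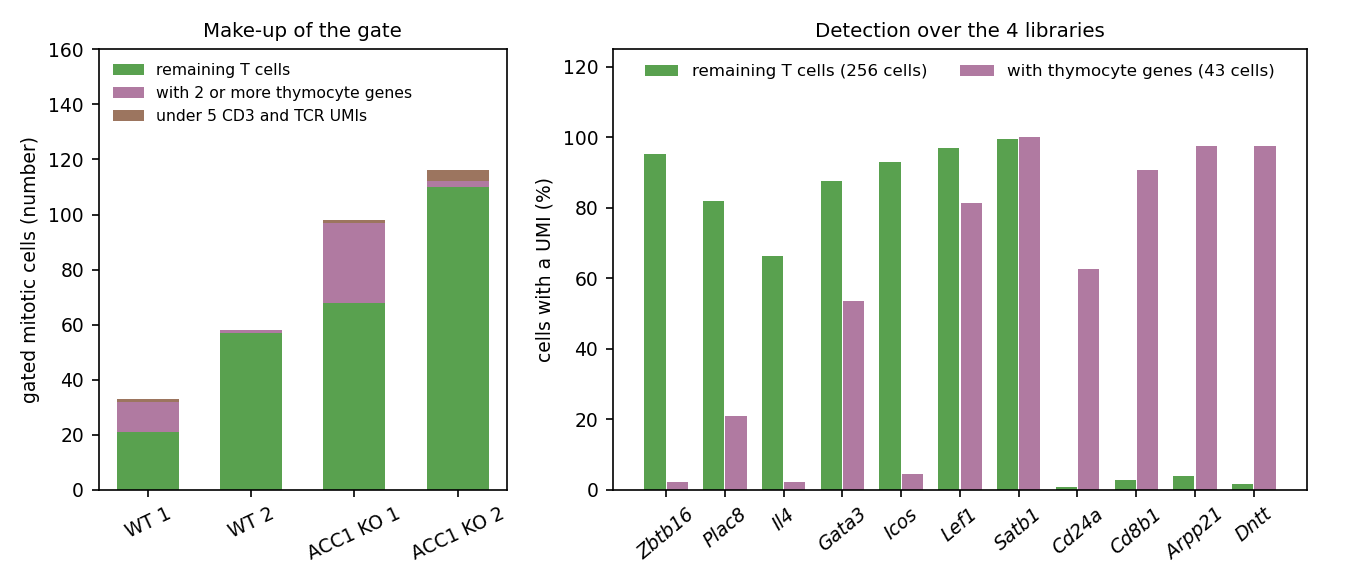
Left, the number of gated mitotic cells per library, split into the remaining T cells, cells with UMIs of 2 or more DP thymocyte genes and cells with under 5 CD3 and T cell receptor UMIs. Right, the percentage of cells with a UMI of each gene over the 4 libraries, in the 256 remaining cells and in the 43 cells with thymocyte genes; Zbtb16 and Il4 are near 0 in the latter, while Cd8b1, Arpp21 and Dntt are near 0 in the former, as the split itself used these 3 genes.

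Markers of other cell types were summed in the same cells. DP markers reached 623, 49.8, 608 and 29.5 CPM, and fell under 16 CPM in every library in the 256 remaining cells (3.01, 13.2, 9.10 and 15.3 CPM). The B cell list followed the same libraries, at 623, 69.0, 524 and 39.4 CPM, of which Ly6d made up 542, 46.0, 438 and 2.87 CPM. Myeloid markers stood at 175, 126, 300 and 661 CPM, highest in the ACC1 KO libraries. iNKT17 markers (128, 226, 173 and 198 CPM), gamma-delta T cell markers (82.5, 175, 99.4 and 119 CPM) and erythroid and epithelial markers (8.25, 0, 6.63 and 2.87 CPM) were low throughout. Doublet scores were ranked within each library, and a preset top fraction was marked (0.8% per 1000 cells). This fraction was 238, 783, 315 and 584 cells of the 4 libraries, and none of the 305 cells was among them.

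At the edges of the rule, 46 of the 305 cells held exactly 3 of the 9 mitosis genes and 94 held all 9. Just outside it, 81 cells low in Nkg7 and Il2rb held 2 of the 9, 261 held 1 and 2073 held none. Cells with 3 genes had a median of 11236, 22453, 9871 and 20369 UMIs, and cells with 2 had 12159, 18950, 8100 and 17314, so the order between them was not the same in every library. On the other limit, 147 cells held no UMI of Nkg7 or Il2rb, 86 held 1 and 72 held 2, while 38 mitotic cells with 3 UMIs fell just outside.

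Mitotic cells low in Nkg7 and Il2rb were, by value, a larger share of both ACC1 KO libraries than of either WT library. Among cells without Cd79a or Rag1, they were 0.682% of WT 1 (exact 95% binomial interval 0.470 to 0.956), 0.593% of WT 2 (0.451 to 0.766), 1.65% of ACC1 KO 1 (1.34 to 2.01) and 1.39% of ACC1 KO 2 (1.15 to 1.66). Intervals cover counting error only. The genotypes did not overlap, with means of 0.638 ± 0.0626% in WT and 1.52 ± 0.188% in ACC1 KO (SD, n = 2 each). The difference was 0.882 percentage points (two-sided exact permutation p = 0.3333, the smallest that 2 against 2 libraries can give). Within libraries of the same number the share was 2.42 and 2.34 times as high in ACC1 KO. After each cell was thinned to 3000 UMIs, which left out shallower cells, the shares were 0.979, 0.950, 2.42 and 2.15%. Thinning lowers the UMIs of Nkg7 and Il2rb in a cell while the limit on them stays. The thinned gate therefore held more cells, 45, 92, 130 and 179, and is not the same population. In the 256 remaining cells they were 0.434, 0.583, 1.15 and 1.31%.

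That share could move with 2 quantities, the number of cells low in Nkg7 and Il2rb and the part of them in mitosis. Cells of the low gate were 10.3, 4.89, 15.8 and 9.64% of the libraries, higher in ACC1 KO within each number but overlapping across numbers (exact permutation p = 0.6667, two-sided). Within the low gate, 6.64% (4.61 to 9.20), 12.1% (9.34 to 15.4), 10.4% (8.56 to 12.6) and 14.4% (12.0 to 17.0) were mitotic. WT 2 lay above ACC1 KO 1, and the means of 9.39 ± 3.88% and 12.4 ± 2.78% (SD, n = 2 each) differed by less than the spread between WT libraries (exact permutation p = 0.6667, two-sided). The difference of 3.02 points ranged from 0.277 without WT 1 to 5.77 without WT 2. After thinning to 3000 UMIs the 4 values were 5.08, 5.48, 9.06 and 6.57%, with no overlap (exact permutation p = 0.3333, two-sided). These values again describe the wider gate that thinning gives, and not the same cells. Mitotic cells with 3 or more UMIs of Nkg7 and Il2rb, called mitotic iNKT1-gated cells here, were 0.744, 1.71, 2.16 and 3.13% of the libraries. Of all mitotic cells, those low in Nkg7 and Il2rb made up 47.8, 25.8, 43.4 and 30.7%, so that balance followed the library number and not the genotype (exact permutation p = 1, two-sided).

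**Figure D2:**
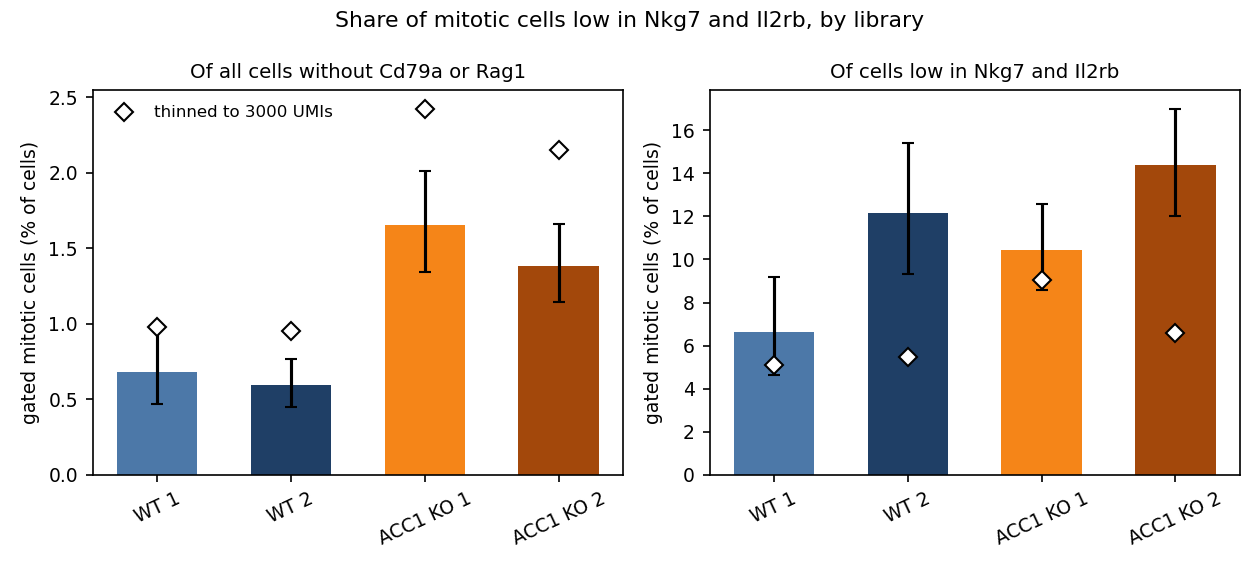
Percentage of gated mitotic cells in each library, with exact 95% binomial intervals as bars and values after thinning to 3000 UMIs as open diamonds, over all cells without Cd79a or Rag1 and over cells low in Nkg7 and Il2rb. Over all cells both ACC1 KO libraries (1.65 and 1.39%) lie above both WT libraries (0.682 and 0.593%). Within the low gate WT 2 (12.1%) lies above ACC1 KO 1 (10.4%). Thinning kept the limit on Nkg7 and Il2rb, so the diamonds cover more gated cells than the bars.

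The gated mitotic cells were set beside the 593 mitotic iNKT1-gated cells to describe their subset identity. No test is given, since the rule chose cells by genes of this contrast. The fixed list of iNKT2 markers had 9 of 11 members higher than in the iNKT1-gated cells in all 4 libraries, with a median log2 ratio of 0.65, 0.83, 0.72 and 0.98, against -0.0037, -0.0440, -0.0145 and 0.0145 over all genes. Of all 8474 genes compared, 1711 were higher and 2017 lower in all 4 libraries. Without the cells with DP genes or few CD3 UMIs it was 11 of 11. Precursor markers were higher for 8 of 10 measured members and lower for 2. Without the same cells, 6 of 10 precursor markers were higher and 2 lower, where 1601 of all 8445 genes were higher and 1967 lower. iNKT1 markers were lower for 15 of 15.

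Genes far above the mitotic iNKT1-gated cells were named after their values were seen. Igfbp4, which binds insulin-like growth factors, was at 386, 347, 320 and 371 CPM, against 116, 114, 73.2 and 89.6 CPM. Ccr9, a chemokine receptor of thymocytes, was at 235, 227, 257 and 269 CPM, against 91.1, 79.1, 82.6 and 87.6 CPM. Neither range overlapped. Id3, an inhibitor of E proteins, was at 487, 459, 540 and 472 CPM, against 259, 135, 161 and 146 CPM. Lef1 was at 683, 641, 696 and 1066 CPM, against 367, 312, 316 and 376 CPM. Ccr7, the receptor that guides cells to the medulla, was at 80.4, 84.3, 61.5 and 84.9 CPM, against 22.8, 29.6, 13.4 and 25.3 CPM. All these were higher in every library.

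The cytotoxic and natural killer genes went the other way. Ly6c2, a surface protein of iNKT1 cells, was at 6.19, 10.7, 34.1 and 32.8 CPM, against 449, 575, 700 and 695 CPM. Gzmb, a killing protease, was at 0, 0, 5.68 and 4.92 CPM, against 191, 265, 604 and 427 CPM. Klrd1, the CD94 receptor, was at 6.19, 10.7, 14.2 and 14.8 CPM, against 273, 264, 419 and 264 CPM. Since both populations had passed the same limit on 9 mitosis genes, their other mitotic genes are given as values only. Median log2 ratios were 0.14, -0.22, 0.02 and -0.12 for the spindle list, 0.31, -0.04, 0.19 and 0.02 for kinases and cyclins, and 0.31, -0.05, 0.24 and -0.03 for kinetochore genes. In the 256 remaining cells the spindle list was at -0.30, -0.25, -0.17 and -0.15, with 14 of 24 genes lower and 0 higher in all 4 libraries. Of all 8445 genes compared there, 1967 were lower and 1601 higher in all 4 libraries.

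**Figure D3:**
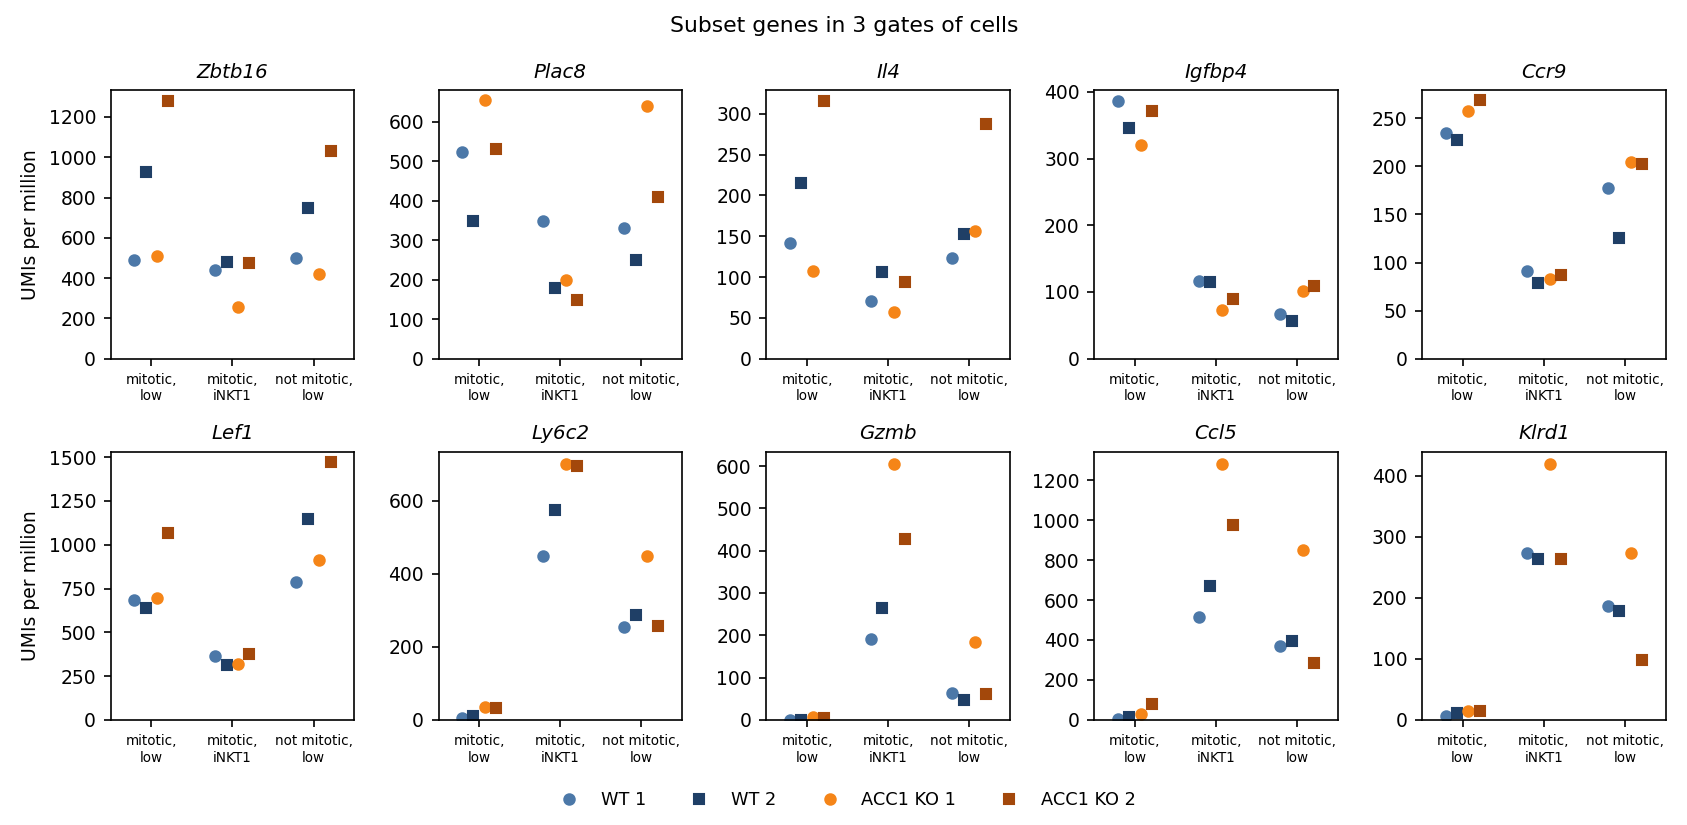
CPM of 10 subset genes in each library, in the gated mitotic cells (mitotic, low), the mitotic iNKT1-gated cells and the low-gate cells with no mitosis gene. Igfbp4 and Ccr9 are higher in the gated mitotic cells than in the mitotic iNKT1-gated cells in all 4 libraries, and Ly6c2, Gzmb, Ccl5 and Klrd1 are lower.

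Beside the 2073 low-gate cells with no mitosis gene, called non-mitotic here, the mitotic cells carried the transcripts of cell division. All 24 spindle genes, 19 kinetochore genes and 32 DNA replication genes were higher in all 4 libraries, the last with median log2 ratios of 2.20, 1.66, 1.96 and 1.87. Replication genes were no part of the rule, but both populations were chosen by their mitosis genes. The non-mitotic cells were required to hold no UMI of those genes. The replication contrast is therefore not independent of the choice of cells and is given as a description. Hist1h2ap, a histone gene, was at 2265, 1371, 2417 and 1324 CPM, against 16.2, 10.9, 17.5 and 21.8 CPM. Pclaf, which binds the replication clamp, was at 868, 677, 733 and 627 CPM, against 0.93, 1.31, 2.81 and 1.34 CPM. The mitotic gate thus held S-phase transcripts as well as mitotic ones.

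Genes of cytokine response were mostly lower in the mitotic cells by value. Il7r, the receptor for the survival cytokine IL-7, was at 264, 264, 325 and 248 CPM, against 1497, 1209, 1485 and 772 CPM in the non-mitotic low-gate cells. Btg1, an antiproliferative gene, was at 165, 182, 298 and 224 CPM, against 1174, 757, 1167 and 745 CPM, but its list of cell cycle brakes had only 7 of 15 members lower and 3 higher in all 4 libraries. Of the list of cytokine receptors and Jak-Stat genes, 16 of 18 were lower in all 4 libraries, and of the T cell receptor signal and immediate-early genes, 19 of 23. Of all 8706 genes compared, 2902 were lower and 2490 higher in all 4 libraries. The nuclear RNA Malat1 was at 3884, 3455, 4939 and 6157 CPM against 15989, 14575, 15906 and 14402 CPM. Of the iNKT2 markers 2 of 11 were higher and 2 lower in all 4 libraries. Precursor markers were lower in the mitotic cells for 7 of 11 members and higher for 2, with medians of -0.08, -0.64, -0.10 and -0.46. In the 256 remaining cells 9 of 11 were lower and 2 higher, where 2633 of all 8620 genes were lower and 2404 higher. The non-mitotic cells were shallower, with a median of 4373, 5426, 3714 and 6950 UMIs per cell, so that the same limit on Nkg7 and Il2rb admits cells with a larger fraction of these genes. iNKT1 markers were lower in the mitotic cells for 15 of 15. So were iNKT17 markers for 8 of 12 and myeloid markers for 7 of 8, with 0 higher in either list. Gamma-delta T cell markers were lower for 4 of 5 and higher for 1. The non-mitotic gate thus held more transcripts of other cell types. The part of this mixture and of the depth gap in the lower values was not tested.

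Between genotypes, 2 of 8495 genes tested passed in the gated mitotic cells, both higher in ACC1 KO (0.0235% of genes, edgeR quasi-likelihood test on UMIs summed per library, Benjamini-Hochberg adjusted p under 0.05). At an unadjusted p under 0.05 there were 85 higher and 21 lower. The 2 genes were H2-Eb1 and H2-Ab1, which encode chains of MHC class II, the antigen-presenting molecule of B cells, macrophages and dendritic cells. H2-Eb1 (ENSMUSG00000060586, chromosome 17, 34305867 to 34316674, plus strand, mm10) had 0, 0, 58 and 206 UMIs, or 0, 0, 54.9 and 84.5 CPM (adjusted p = 0.0006). Taking 3 UMIs over both WT libraries as the floor, it was at least 45.0-fold higher in ACC1 KO. H2-Ab1 (chromosome 17, 34257689 to 34269419, plus strand) stood at 6.19, 1.53, 52.1 and 101 CPM, a log2 difference of 4.67 ± 0.58 (SE, adjusted p = 0.0103). H2-Aa, the partner chain, stood at 0, 0, 35.0 and 84.5 CPM (adjusted p = 0.0960).

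These UMIs were concentrated in 2 cells. The highest single cell held 219 of the 236 class II UMIs of ACC1 KO 1 and 1263 of the 1360 of ACC1 KO 2, while the next cell held 3 and 23. In WT the highest cells held 2 and 8. The pair of ACC1 KO cells held 0 UMIs of CD3 and T cell receptor genes and 0 of Zbtb16, but 15 and 23 UMIs of Lyz2, the lysozyme of myeloid cells, and 13 and 13 of Tyrobp, a myeloid adaptor. Each carried exactly 3 of the 9 mitosis genes. Without the cells with DP genes or few CD3 UMIs, H2-Eb1 had 0, 0, 0 and 4 UMIs and H2-Ab1 had 0, 2, 4 and 9. No gene passed when at least 5 mitosis genes were required (69 genes at an unadjusted p under 0.05).

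Among the genes of the lipid lists, Scd2 and Srebf1 had the smallest p-values in the gated mitotic cells, though neither passed over all genes. Scd2 (ENSMUSG00000025203, chromosome 19, 44293674 to 44306864, plus strand, mm10) encodes a desaturase that makes monounsaturated fatty acids. It stood at 109, 98.9, 273 and 350 CPM, from 53, 129, 288 and 853 UMIs. The genotypes did not overlap. WT averaged 104 ± 7.36 CPM, and ACC1 KO averaged 311 ± 54.6 CPM (SD, n = 2 each). The log2 difference was 1.56 ± 0.29 (SE, adjusted p = 0.178, edgeR quasi-likelihood test), and 1.31 and 1.81 within libraries numbered 1 and 2. In the 256 remaining cells it was 1.62 ± 0.28 (edgeR adjusted p = 0.0414).

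Srebf1 (ENSMUSG00000020538, chromosome 11, 60199089 to 60222581, minus strand) encodes SREBP-1, the transcription factor of fatty acid synthesis genes. It stood at 16.5, 23.8, 66.2 and 95.5 CPM, from 8, 31, 70 and 233 UMIs, again without overlap. WT averaged 20.1 ± 5.14 CPM and ACC1 KO 80.9 ± 20.7 CPM (SD, n = 2 each), a log2 difference of 1.91 ± 0.35 (SE, edgeR adjusted p = 0.177). Within libraries numbered 1 and 2 it was 1.91 and 1.94. In the 256 remaining cells it was 2.07 ± 0.36 (edgeR adjusted p = 0.0414). Of the 8107 genes tested there, 3 passed (0.037%), namely Scd2, Srebf1 and C77080, whose UMIs were 0, 2, 25 and 66.

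The same genes were compared in the other populations. In the mitotic iNKT1-gated cells Scd2 stood at 62.1, 52.4, 301 and 331 CPM (log2 difference 2.53 ± 0.21 SE, edgeR adjusted p = 0.0024), and in the non-mitotic low-gate cells at 92.4, 81.5, 223 and 236 CPM (1.46 ± 0.19, edgeR adjusted p = 0.0325). The genotype difference of Scd2 in the gated mitotic cells was 0.96 ± 0.25 smaller on the log2 scale than in the mitotic iNKT1-gated cells, which did not pass as an interaction (-0.96, edgeR adjusted p = 0.577). Srebf1 stood at 18.6, 19.8, 76.6 and 73.8 CPM in the mitotic iNKT1-gated cells (1.96 ± 0.23, edgeR adjusted p = 0.0256). WT levels of Scd2 were thus lower in the iNKT1-gated mitotic cells and ACC1 KO levels alike.

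Other lipid genes mostly had positive differences that did not pass, with adjusted p of 0.9997 unless given. Of the 23 cholesterol synthesis genes, 18 were tested, none passed and 8 lay above WT in both ACC1 KO libraries with none below, where 14.3% of all genes tested lay above and 9.31% below. Their median log2 difference was 0.63 (0.41 in libraries numbered 1, 0.60 in those numbered 2), against -0.0041 over all genes tested. Of 16 tested in the 256 remaining cells, 13 lay above and none below, against 17.1% and 10.8% of all genes there. The median of these 16 was 0.86 (1.11 and 0.67 by number). The median over the 305 cells was 0.280 when ACC1 KO 1 was left out. Genes of RNA quality and handling had a median of 0.58 over 8 in the 305 cells (-0.09 and 0.79 by number), with 1 above, none below and 6 positive. Malat1, on that list, stood at 3884, 3455, 4939 and 6157 CPM, and the part of RNA quality in the lipid values was not tested. Cyp51, a sterol demethylase, stood at 20.6, 13.03, 35.96 and 32.8 CPM. Fdps, which makes farnesyl diphosphate, stood at 68.1, 64.4, 112 and 102 CPM. In both genes the genotypes did not overlap.

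Sterol efflux genes and targets of the oxysterol receptor LXR had 6 of 9 tested members above WT in both ACC1 KO libraries and 1 below. Their median was 0.39. Over all genes tested, 14.3% lay above and 9.31% below. Abcg1, a cholesterol exporter, stood at 39.2, 32.2, 75.7 and 119 CPM (log2 difference 1.46 ± 0.34 SE, edgeR adjusted p = 0.625). Abca1, another exporter, stood at 43.3, 36.04, 58.7 and 105 CPM. In the list of SREBP factors and their processing, 3 of 7 lay above and none below, with a median of 0.31. Insig1, which retains SREBP in the endoplasmic reticulum, stood at 10.3, 4.60, 16.1 and 25.4 CPM.

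Fatty acid synthesis itself had 6 of 16 tested genes above and none below, against 14.3% and 9.31% of all genes tested. Its median was 0.28. Fasn, the fatty acid synthase that uses malonyl-CoA, stood at 41.3, 46.0, 58.7 and 65.6 CPM, a log2 difference of 0.47 ± 0.30. Fads2, a desaturase of polyunsaturated fatty acids, rested on 2, 1, 10 and 35 UMIs, and Elovl6, an elongase, stood at 12.4, 2.30, 15.1 and 15.2 CPM. Fatty acid oxidation ran the other way in sign, with 2 of 17 above, 5 below and a median of -0.16. Cpt1a, which carries fatty acids into mitochondria and is inhibited by malonyl-CoA, stood at 14.4, 19.2, 11.4 and 6.56 CPM (log2 difference -1.06 ± 0.50). Glycerolipid and phospholipid assembly genes were near all genes, with 6 of 25 above, 3 below and a median of 0.09.

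**Figure D4:**
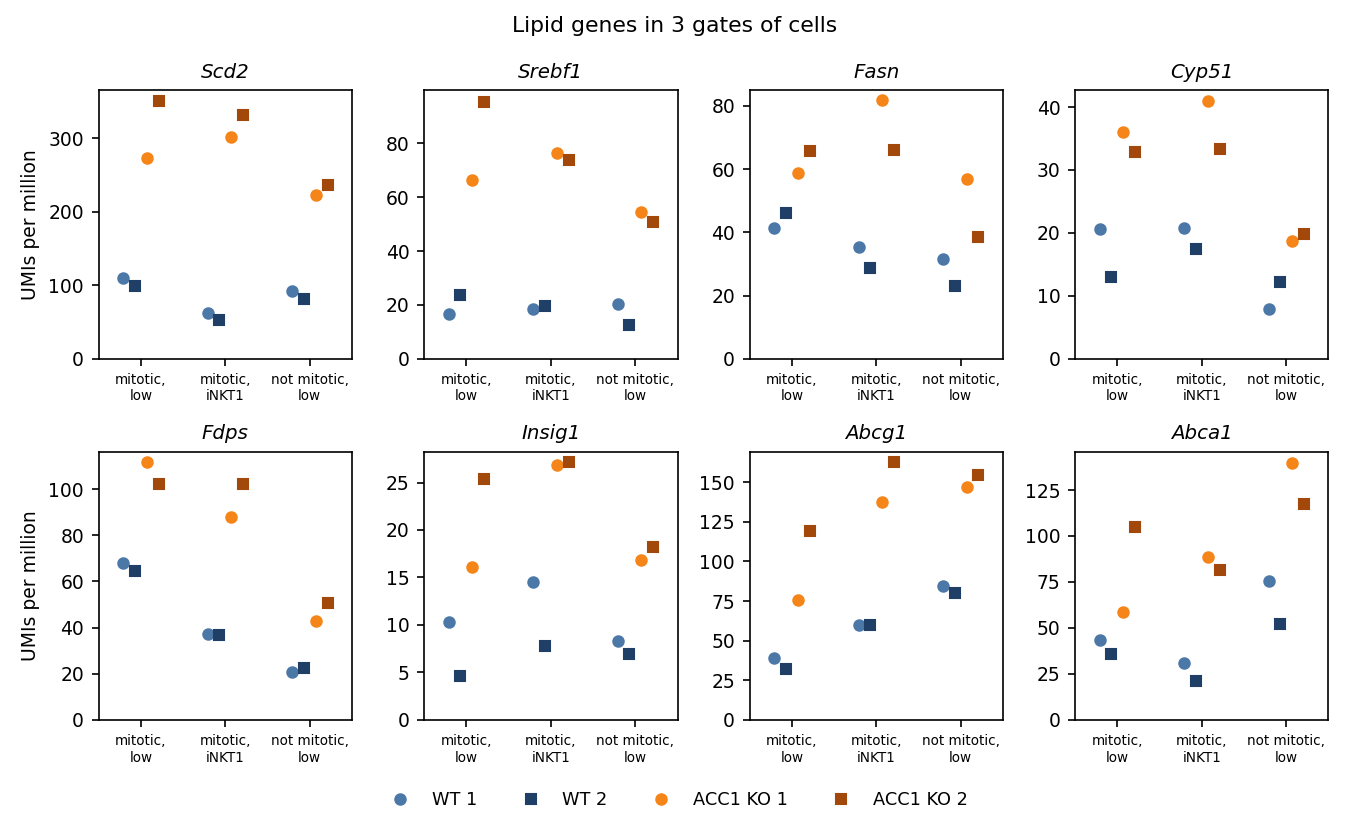
CPM of 8 lipid genes in each library, in the gated mitotic cells (mitotic, low), the mitotic iNKT1-gated cells and the low-gate cells with no mitosis gene. Scd2 and Srebf1 lie higher in both ACC1 KO libraries than in both WT libraries in all 3 populations.

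Genes of the mitotic programme gave no call between genotypes in the gated cells. No gene of the mitotic kinase, spindle, kinetochore or DNA replication lists passed the edgeR test, and none had an unadjusted p under 0.05. Their medians were 0.04 over 16 kinases and cyclins, 0.10 over 24 spindle genes, 0.04 over 19 kinetochore genes and -0.12 over 32 replication genes. In both ACC1 KO libraries, 9 of the 24 spindle genes lay above WT and 1 below, 2 of the 19 kinetochore genes lay above and 0 below, and of the 32 replication genes 0 lay above and 1 below, where 14.3% of all genes tested lay above and 9.31% below. Among the 256 remaining cells 13 spindle genes lay above and 1 below, 11 kinetochore genes lay above and 0 below, and 1 replication gene lay above and 8 below (17.1% and 10.8% of all genes there). The medians in those cells were 0.41, 0.34 and -0.32 in libraries numbered 1 and 0.26, 0.16 and 0.06 in those numbered 2. Myc and growth genes had a median of -0.09 over 18, and glycolysis genes -0.11 over 16, with 1 above and 4 below. Cells with all 9 mitosis genes made up 24.2, 32.8, 28.6 and 33.6% of the gated cells, following the library number.

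Survival and stress lists also gave no call. Over all genes tested, 14.3% lay above WT in both ACC1 KO libraries and 9.31% below. Pro-apoptotic genes had a median of -0.20 over 15 tested genes (2 above, 3 below), anti-apoptotic genes 0.02 over 9 (1 above, 2 below) and genes of ferroptosis and lipid peroxide defence -0.06 over 17 (2 above, 2 below). p53 targets had a median of 0.24 over 16, with 5 above and 4 below, and the integrated stress response 0.18 over 12, with 1 above and 1 below. Among cell cycle brakes, Txnip, a glucose uptake inhibitor, stood at 26.8, 21.5, 69.1 and 42.2 CPM (log2 difference 1.19 ± 0.36, edgeR adjusted p = 0.9997).

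**Figure D5:**
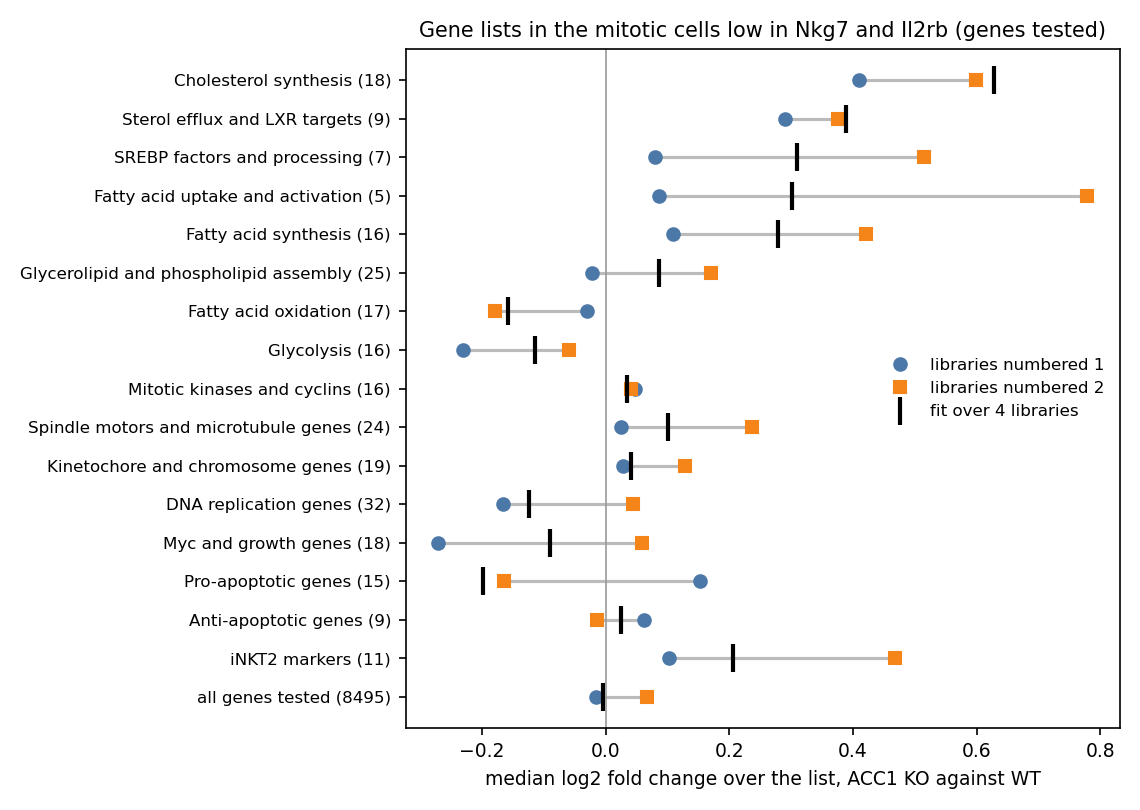
Median log2 fold change between ACC1 KO and WT over the tested genes of 16 fixed lists and over all genes tested, from the fit over 4 libraries (black ticks) and from the libraries numbered 1 (circles) and 2 (squares). Cholesterol synthesis has the highest median among the lists drawn (0.63), while mitotic and DNA replication lists lie between -0.12 and 0.10. Of the lists not drawn, myeloid markers had a higher median (1.87) and RNA quality and handling genes had 0.58.

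Subset genes of the gated cells were compared last. iNKT2 markers had 3 of 11 above and none below, where 14.3% of all genes tested lay above and 9.31% below. Their median was 0.21, and none had an unadjusted p under 0.05. Zbtb16 (chromosome 9, 48654297 to 48836222, minus strand, mm10) stood at 491, 925, 510 and 1280 CPM, a log2 difference of 0.30 ± 0.48 (SE), and followed the library number. Il4 stood at 142, 215, 107 and 316 CPM, with a like split by number. Plac8 (chromosome 5, 100553725 to 100572245, minus strand) stood at 524, 348, 654 and 530 CPM, a log2 difference of 0.43 ± 0.31. Summed DP markers, at 623, 49.8, 608 and 29.5 CPM, moved with the number too.

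Traces of iNKT1 genes in these cells differed in sign between genes. Of 15 iNKT1 markers 8 were tested, and 3 lay above and 1 below, against 14.3% and 9.31% of all genes tested. Ly6c2 rested on low levels, 6.19, 10.7, 34.1 and 32.8 CPM (log2 difference 1.81 ± 0.44, edgeR adjusted p = 0.820), and so did Ccl5, a chemokine of cytotoxic cells, at 4.13, 15.3, 29.3 and 78.3 CPM. Tbx21 stood at 18.6, 22.2, 7.57 and 8.61 CPM (-1.37 ± 0.45, edgeR adjusted p = 0.9997). The mitotic iNKT1-gated cells, with Ly6c2 at 449 to 700 CPM, were more frequent in ACC1 KO within each number, and their part in these traces was not tested. H2-Q7, a nonclassical MHC class I gene, stood at 82.5, 53.7, 158 and 159 CPM (edgeR adjusted p = 0.858).

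In the lower direction no gene passed. Among genes without overlap and with a mean of at least 20 CPM, the smallest p-values belonged to genes of modest level. Nipal1, a magnesium transporter, stood at 55.7, 52.1, 35.0 and 23.0 CPM (log2 difference -0.95 ± 0.33, edgeR adjusted p = 0.9997). Hsd17b4, a peroxisomal enzyme of fatty acid oxidation, stood at 49.5, 41.4, 25.6 and 24.2 CPM. Ctsz, a lysosomal protease, stood at 72.2, 70.5, 41.6 and 43.9 CPM. Rcl1, Nfkbib, Gm16599, Cdk5rap3, Gcsh, Surf1 and Vac14 were also without overlap, with log2 differences between -0.98 and -0.73.

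Whether the genotype difference itself differed between populations was tested as an interaction. Against the mitotic iNKT1-gated cells, 1 of 9558 genes passed (0.0105%). It was Ly6d, a surface protein of lymphoid progenitors, whose difference was lower in the gated mitotic cells (-5.00 ± 0.80, edgeR adjusted p = 0.0087). Its level was 542, 46.0, 438 and 2.87 CPM in these cells, which followed the library number, and 0, 0.30, 43.0 and 0 CPM in the others. All its UMIs lay in cells with DP genes, and in the 256 remaining cells it had none. In that set 7 of 9469 genes passed (0.0739%), among them Plac8, at 744, 353, 847 and 545 CPM against 348, 180, 201 and 144 CPM (0.90 ± 0.18, edgeR adjusted p = 0.0174). With all 305 cells the interaction of Plac8 was 0.93 ± 0.21 (edgeR adjusted p = 0.194).

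Against the non-mitotic low-gate cells, 22 of 10710 genes passed (0.205%), 18 with a higher and 4 with a lower difference in the mitotic cells. Among the latter was Il13, a type 2 cytokine, at 59.8, 79.0, 33.1 and 75.0 CPM in the mitotic cells and 6.96, 10.0, 23.7 and 21.6 CPM in the non-mitotic ones (-1.84 ± 0.39, edgeR adjusted p = 0.00914). Its genotype ranges overlapped in the mitotic cells and did not overlap in the non-mitotic ones. Igfbp4 did the same, at 386, 347, 320 and 371 CPM against 66.8, 57.1, 101 and 110 CPM (-0.95 ± 0.23, edgeR adjusted p = 0.0359). Sox5, a transcription factor, stood at 43.3, 92.8, 28.4 and 61.5 CPM against 13.5, 11.3, 16.2 and 28.3 CPM (-1.59 ± 0.37, edgeR adjusted p = 0.0312).

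Genes of iNKT17 cells were among the higher differences. Tmem176b, a membrane protein of iNKT17 cells, stood at 4.13, 1.53, 12.3 and 5.33 CPM in the mitotic cells and at 103, 112, 20.3 and 28.7 CPM in the non-mitotic ones (3.74 ± 0.69, edgeR adjusted p = 0.00215). Tmem176a went with it, at 12.4, 2.30, 15.1 and 9.43 CPM against 159, 185, 24.6 and 39.6 CPM (3.40 ± 0.63, edgeR adjusted p = 0.0250). Summed iNKT17 markers in the non-mitotic cells were 1070, 1112, 265 and 414 CPM, lower in both ACC1 KO libraries, while in the mitotic cells they were 128, 226, 173 and 198 CPM. The part of these iNKT17 markers in the interactions was not tested.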

How the data were processed

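The 2 WT and 2 ACC1 KO libraries of thymic iNKT cells were made with 10x 3′ chemistry 3.1, per the labels. Each deposited matrix holds raw UMI counts of 32285 genes, which the authors obtained with Cell Ranger 7.0.0 and genome mm10, per the submitters' processing notes. The members, the gene lists and the tests were chosen with earlier results of these data known.

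Cells were selected by the rule given at the start, and UMIs were summed per library over the gated mitotic cells, the mitotic iNKT1-gated cells and the low-gate cells with no mitosis gene. CPM are summed UMIs of a gene per 1000000 UMIs of the same sum. Sums were fitted with edgeR 4.0.16 in R 4.3.3 (TMM, default filter on low counts, robust quasi-likelihood fit), with genotype as the only term or with gate, genotype and their interaction. P-values were adjusted by Benjamini-Hochberg over all genes tested, with a threshold of 0.05. With 2 libraries per group the precision is limited, and the smallest sum held 484834 UMIs. The 13 genes of the rule were left in the fit and only described. Shares were compared by exact permutation over libraries, with exact (Clopper-Pearson) 95% binomial intervals. Doublets were scored with scanpy 1.11.5 and removed only as an alternative.

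Named genes were Acaca, the markers of the label, up to 10 genes per direction and 5 per direction for interactions, whose genotypes did not overlap and whose mean reached 20 CPM, filled by smallest p where fewer passed, and up to 6 genes with the smallest p of each of 38 lists. Other genes were named after their values were seen. Log2 ratios between populations used CPM plus 20. Alternatives were DESeq2 1.42.0, its size factors, other filters, a replicate block, each library left out, doublets removed, stricter gates, thinning and a mitochondrial limit of 5%. Cells with at least 2 of 6 DP genes, or under 5 CD3 and T cell receptor UMIs, were left out as alternatives chosen after the data were seen. The scripts were tested on simulated data with a spread set in advance. The genotype fit recovered 1.52% of 1.5-fold, 17.5% of 2-fold and 88.9% of 4-fold changes. The interaction fits recovered 44.6% of 4-fold changes against the mitotic iNKT1-gated cells and 31.2% against the non-mitotic cells. A list without a call may therefore hold changes that were missed.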

Additional observations from a re-analysis of the deposited data

Results flagged for a closer look

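In 9 genes the ACC1 KO and WT difference in the gated mitotic cells differed from that in another population by an edgeR interaction test, and each is given here as a difference of log2 differences. Against the mitotic iNKT1-gated cells it was Ly6d, at -5.00 (1 of 9558 genes, 0.0105%). Against the low-gate cells with no mitosis gene 22 of 10710 genes passed (0.205%), of which 8 met the naming rule. H2-Eb1 was at 8.91 and H2-Aa at 8.51, both with 0 UMIs in the WT mitotic cells, so the fitted values are no bounds. By the floor of 3 UMIs over both WT libraries, H2-Aa was at least 41.5-fold higher in ACC1 KO. Both rested on 1 cell per ACC1 KO library that held 219 and 1263 class II UMIs and 0 of CD3 and T cell receptor genes. Alcam, an adhesion molecule, was at 4.97, with 0, 0.77, 12.3 and 16.4 CPM in the mitotic cells and 45.0, 69.3, 39.6 and 47.8 CPM in the others. Tmem176b was at 3.74 and Tmem176a at 3.40, both low in the mitotic cells of every library. Il13 was at -1.84, Sox5 at -1.59 and Igfbp4 at -0.95.

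Ly6d was detected in 11, 1, 25 and 1 gated mitotic cells of WT 1, WT 2, ACC1 KO 1 and ACC1 KO 2, all of them cells with DP genes, and its interaction could not be fitted in the 256 remaining cells, where it had 0 UMIs.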

How the results depend on the processing

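The difference in the share of gated mitotic cells kept its direction under all 11 alternatives, from 0.469 to 1.32 percentage points, and 0.749 to 1.01 with each library left out. Within the low gate it stayed positive under the 11 alternatives run, and ranged from 0.277 to 5.77 with a library left out. Counts of genes passing between genotypes, 2 in the fit reported, were 4 by DESeq2, 16 without a filter, 33 with a replicate block, 13 when WT 1 was dropped, 11 for WT 2, 20 for ACC1 KO 1, 6 for ACC1 KO 2, and 6 without cells with DP genes. They were 0 with at least 5 mitosis genes, 0 with no Nkg7 or Il2rb UMI, 0 after thinning cells and 0 without cells holding 2 UMIs of other types (69, 71, 60 and 70 at an unadjusted p under 0.05). In the 256 remaining cells the count was 3, 23 with a replicate block, 1 by DESeq2 and 8 to 20 with each library left out. Where 1 library was left out, the lone library is assumed to vary like the others. Interactions with the mitotic iNKT1-gated cells, 1 as reported, were 0 by DESeq2, 0 without doublets and 0 after thinning (33, 295 and 117 at an unadjusted p under 0.05), 11 without a filter, 8 without cells with DP genes, 7 in the remaining cells, 16 and 30 when WT 1 or WT 2 was dropped, and 4 or 6 when the first or second ACC1 KO library was. Against the non-mitotic low-gate cells, 22 as reported, they were 0 by DESeq2 and 0 after thinning (103 and 338), 11 without doublets, 66 without cells with DP genes, and 36 without WT 1 (20 to 36 with each library left out). The cause of these shifts was not tested. The log2 difference of Scd2 ranged from 1.38 to 1.77 and that of Srebf1 from 1.42 to 2.87. Scd2 had an adjusted p of 0.0157 by DESeq2 and 8.95e-08 with a replicate block, and Srebf1 of 0.313 and 1.19e-08, so both passed with the block. H2-Aa and Abcg1 passed with it too. The median of cholesterol synthesis genes stayed positive, from 0.280 to 0.927 over all alternatives. Signs turned for Elovl6 (-0.25) and Tbx21 (0.27) after thinning, for Zbtb16 without WT 1 (-0.12) and without ACC1 KO 2 (-0.51, and -0.28 in the remaining cells; range to 0.89 without WT 2), and for Plac8 in the remaining cells without WT 2 (-0.11) or ACC1 KO 1 (-0.02; range to 0.92 without WT 1). The median of the replication list ranged from -0.342 to 0.0392 with a library left out. That of mitotic kinases ranged from -0.0745 without ACC1 KO 1 to 0.0940 without WT 1, was -0.0751 with no Nkg7 or Il2rb UMI, and ran from -0.0408 without WT 1 to 0.634 without WT 2 in the remaining cells. Deviations of libraries with the same number correlated at 0.455, and with 2 libraries per genotype both pairs give this same value by construction. The labels do not say what the number marks, so the replicate block is given as an alternative only. With 33 cells in WT 1, genes of a few CPM rest on few UMIs, and a difference in them was not detectable at this depth.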
